A study of Drosophila melanogaster with 3 samples.

Results

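The regions described here are the strong binding sites of BtbVII at divergent coding promoters, where 2 protein-coding genes start close together and are transcribed away from each other. Strong peaks are the regions the authors kept for their reproducibility between replicates, by an irreproducible discovery rate (IDR) threshold. A strong peak was a member when its summit lay within 500 bp of the nearest annotated transcription start site (TSS), that TSS belonged to a protein-coding gene, and a TSS of another protein-coding gene on the opposite strand, transcribed away from it, lay at most 1000 bp from it. The rule uses position and gene models only, and no binding value beyond membership of the strong list. It was met by 808 of the 5219 strong peaks on dm6 (15.5%, 95% interval 14.5 to 16.5), which is 34.3% of the 2358 strong peaks at coding promoters. They were set beside the 1550 strong peaks at coding promoters with no divergent partner, called single promoters. The other strong peaks had a non-coding gene as the nearest start (220) or lay farther than 500 bp from any TSS (2641).

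Binding was mapped by chromatin immunoprecipitation and sequencing (ChIP-seq) in whole Drosophila melanogaster embryos of mixed sex, 0 to 24 h old. All embryos came from a transgenic line that carries BtbVII, a BTB-domain protein, with green fluorescent protein (eGFP) at its C terminus, and the labels' description says that the antibody was against GFP. The labels' antibody field names BtbVII, and whether untagged protein was also precipitated cannot be told from them. The 3 biological replicates form 1 group with no control group, so every comparison below is between classes of promoter within a list. Not given in the sources used here are the promoter of the transgene and the number of copies of BtbVII in the line, and the sequencing depth is unknown. Whole embryos mix all cell types and stages, so a region bound in few cells and a region bound weakly in many cannot be told apart.

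In the compact fly genome many neighbouring genes are arranged head to head, and such pairs are rich in broadly expressed genes for translation, mitochondria, RNA processing and vesicle traffic. Their shared upstream region often carries elements such as the DNA replication-related element (DRE), bound by DREF and overlapping sites of the boundary protein BEAF-32, and Motif 1, bound by M1BP. BTB domains are protein interaction domains, and several BTB proteins of the fly, GAGA factor among them, act at promoters and domain borders.

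The annotation held 2640 divergent coding pairs, and a strong summit lay between the start sites or within 500 bp outside them at 786 (29.8%). The 808 members fell at 721 pairs and 1434 genes, with 1 member at 637 pairs, 2 at 81 pairs and 3 at 3 pairs. The distance between the start sites of a member's pair ran from 1 to 999 bp with a median of 350 bp, against 299.5 bp over all annotated pairs. At 595 members (73.6%) the summit lay within 500 bp of both start sites.

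To show what the bound intervals look like, the whole sequence between the start sites is printed for the 8 members of highest signal with the summit between start sites 80 to 300 bp apart and no annotated exon in between. Signal is the value the authors' peak caller gave each region. Each run is the plus strand of the RefSeq Release 6 genome (dm6), 5′ to 3′, so the first gene named is transcribed to the left and the second to the right. Capitals mark exact matches, on either strand, to any of 11 motifs: DRE (TATCGATA), the CGATA element of BEAF-32, the Motif 1 core (GGTCACAC), the E-box of Motif 5 (CAGCTG), the repeat element bound by GAGA factor (GAGAGA), the simple repeat of C with A (CACACA), the TATA box bound by TBP (TATAAA), the core of the Initiator (TCAGT), a run of 7 A, the Zelda site (CAGGTAG) and the Pho core (GCCAT). The DRE contains CGATA on each strand, so a DRE always counts for both.
Art3 and mRpS10, chr3R:15229409-15229664: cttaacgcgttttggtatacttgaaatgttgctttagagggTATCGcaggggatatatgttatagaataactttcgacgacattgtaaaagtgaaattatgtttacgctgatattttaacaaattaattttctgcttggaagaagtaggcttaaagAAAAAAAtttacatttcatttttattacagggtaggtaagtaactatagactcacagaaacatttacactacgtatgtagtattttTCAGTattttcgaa
CG13390 and CG17294, chr2L:8376798-8377034: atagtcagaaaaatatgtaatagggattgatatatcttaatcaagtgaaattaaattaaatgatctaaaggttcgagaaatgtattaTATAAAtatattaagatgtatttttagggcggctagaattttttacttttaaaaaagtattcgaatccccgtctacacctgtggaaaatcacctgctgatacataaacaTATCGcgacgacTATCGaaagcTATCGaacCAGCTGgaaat
Tcs5 and CHMP2B, chr3L:5139396-5139618: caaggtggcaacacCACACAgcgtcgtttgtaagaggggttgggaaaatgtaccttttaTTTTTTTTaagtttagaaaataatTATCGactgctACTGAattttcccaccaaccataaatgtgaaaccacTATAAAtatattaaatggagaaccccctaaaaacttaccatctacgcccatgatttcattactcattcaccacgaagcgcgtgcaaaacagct
Lon and PIG-F, chr3L:19612200-19612454: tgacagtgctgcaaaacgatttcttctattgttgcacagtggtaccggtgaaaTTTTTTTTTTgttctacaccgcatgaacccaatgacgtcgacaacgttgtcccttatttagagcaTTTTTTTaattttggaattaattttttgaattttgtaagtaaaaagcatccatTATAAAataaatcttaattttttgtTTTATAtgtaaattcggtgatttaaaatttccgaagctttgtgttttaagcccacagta
CG3437 and CG3552, chr3L:9457670-9457911: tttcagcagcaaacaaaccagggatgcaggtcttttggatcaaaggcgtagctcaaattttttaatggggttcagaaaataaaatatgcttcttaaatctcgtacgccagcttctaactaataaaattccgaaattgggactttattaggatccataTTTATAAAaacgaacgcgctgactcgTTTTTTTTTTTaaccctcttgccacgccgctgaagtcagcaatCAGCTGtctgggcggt
Mkk4 and SLIRP2, chr3R:8650797-8651083: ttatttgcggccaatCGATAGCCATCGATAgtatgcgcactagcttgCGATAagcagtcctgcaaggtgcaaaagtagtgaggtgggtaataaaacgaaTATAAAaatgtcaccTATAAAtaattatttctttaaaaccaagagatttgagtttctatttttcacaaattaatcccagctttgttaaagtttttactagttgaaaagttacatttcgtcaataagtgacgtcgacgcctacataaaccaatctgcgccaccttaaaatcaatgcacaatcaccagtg
Cp190 and CG4338, chr3R:15275242-15275521: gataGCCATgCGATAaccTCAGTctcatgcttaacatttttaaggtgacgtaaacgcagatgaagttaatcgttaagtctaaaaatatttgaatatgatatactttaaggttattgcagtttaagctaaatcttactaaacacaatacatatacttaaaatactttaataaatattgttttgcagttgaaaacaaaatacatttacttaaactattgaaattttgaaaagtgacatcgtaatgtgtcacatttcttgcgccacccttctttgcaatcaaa
Reps and l(2)gd1, chr2L:11106646-11106942: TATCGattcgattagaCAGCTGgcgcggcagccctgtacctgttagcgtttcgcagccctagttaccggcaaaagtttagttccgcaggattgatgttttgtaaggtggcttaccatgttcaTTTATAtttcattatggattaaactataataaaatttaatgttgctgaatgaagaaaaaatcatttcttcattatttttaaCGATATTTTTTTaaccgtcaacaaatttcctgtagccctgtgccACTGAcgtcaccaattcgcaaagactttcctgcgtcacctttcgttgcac

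A TATAAA match lay in 6 of the 8 intervals, a CGATA match in 6, a run of 7 A in 5, TCAGT in 4, CAGCTG in 3, GCCAT in 2 and CACACA in 1. None of the 8 held the full DRE, the Motif 1 core, GAGAGA or the Zelda site. The interval between CG13390 and CG17294 had a TATAAA match from base 88, with the summit at base 95, and 3 CGATA matches from bases 197, 209 and 219. Between Mkk4, which encodes a MAP kinase kinase, and SLIRP2, CGATA matches began at bases 16, 26 and 48, away from the summit at base 171. The GC content of the 8 intervals ran from 28.9% between Cp190 and CG4338 to 40.1% between CG3437 and CG3552.

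The member of highest signal lay between Ugalt, a transporter of UDP-galactose into the Golgi, and eIF2Bbeta, a subunit of the exchange factor that recharges the initiation factor eIF2 (X, 2703676 to 2704079). Replicates 1, 2 and 3 gave it a signal of 1438, 1533 and 732, and the pooled list 3686. Scales differ between lists, so ranks are the comparable quantity, and this region ranked 3, 2 and 2. The summit lay 44 bp upstream of Ugalt and 675 bp upstream of eIF2Bbeta.

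The next regions by signal included pairs with genes of mitochondria. The region between CenG1A, a GTPase-activating protein for Arf, and mRpS23, a mitochondrial ribosomal protein gene (2L, 13835306 to 13835641), had signals of 896, 949.7 and 349 in replicates 1, 2 and 3 and ranked 10, 13 and 34. At Gprk2, a G protein-coupled receptor kinase, and PNPase, which degrades mitochondrial RNA (3R, 31404491 to 31404840), the signals were 787, 989 and 408 and the ranks 18, 9 and 20. These 2 regions kept to the first 34 ranks in every replicate. The summit near PNPase lay 82 bp inside the gene, in the 5′ UTR, while that near CenG1A lay in the space between the start sites. The interval between the arginine methyltransferase gene Art3 and mRpS10, printed above, had signals of 755, 839 and 463 and ranks of 24, 25 and 9, and its summit stood 128 bp from one start site and 129 bp from the other.

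Chro, the gene of Chromator, found at domain borders of chromatin and on the spindle, starts 105 bp from Ssl1, a subunit of the repair and transcription factor TFIIH. Its signals were 788, 913 and 383 in replicates 1, 2 and 3, at ranks 17, 16 and 28. The region at Hsp83, the Hsp90 chaperone, and CG14965 had signals of 706, 908 and 325 at ranks 31, 17 and 40. At CHMP2B, a subunit of the membrane-remodelling complex ESCRT-III, and Tcs5, a kinase of the complex that modifies transfer RNAs, the signals were 616, 846 and 338 at ranks 47, 23 and 35. Each of these regions stood among the first 50 of 30000 in all 3 replicates. The regions named here were picked by pooled signal among members that all 3 replicates supported. High ranks in each replicate are therefore partly built in.

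Beyond these, the 20 members of highest signal that all 3 replicates supported included pairs with eIF4EHP, a cap-binding repressor of translation, with Lon, a protease of mitochondria, with PIG-F, of GPI anchor synthesis, and with Stt3A, the catalytic subunit of oligosaccharyltransferase. They also included genes of adhesion and signalling: Mtl, a Rac-like GTPase, Pax, the adhesion protein paxillin, and Piezo, a mechanosensitive channel. The last of them held RpS27 with Nup37, a nucleoporin, and CG7841 with Z600, an inhibitor of mitosis in the early embryo. Pooled signal over the 20 ran from 1354 to 3686, and the lowest rank any of them took in any replicate was 151, for the pair of RpS27 in replicate 1. Of the 20 summits, 15 lay between the start sites and 11 stood 80 to 180 bp upstream of the nearest one.

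**Figure D1:**
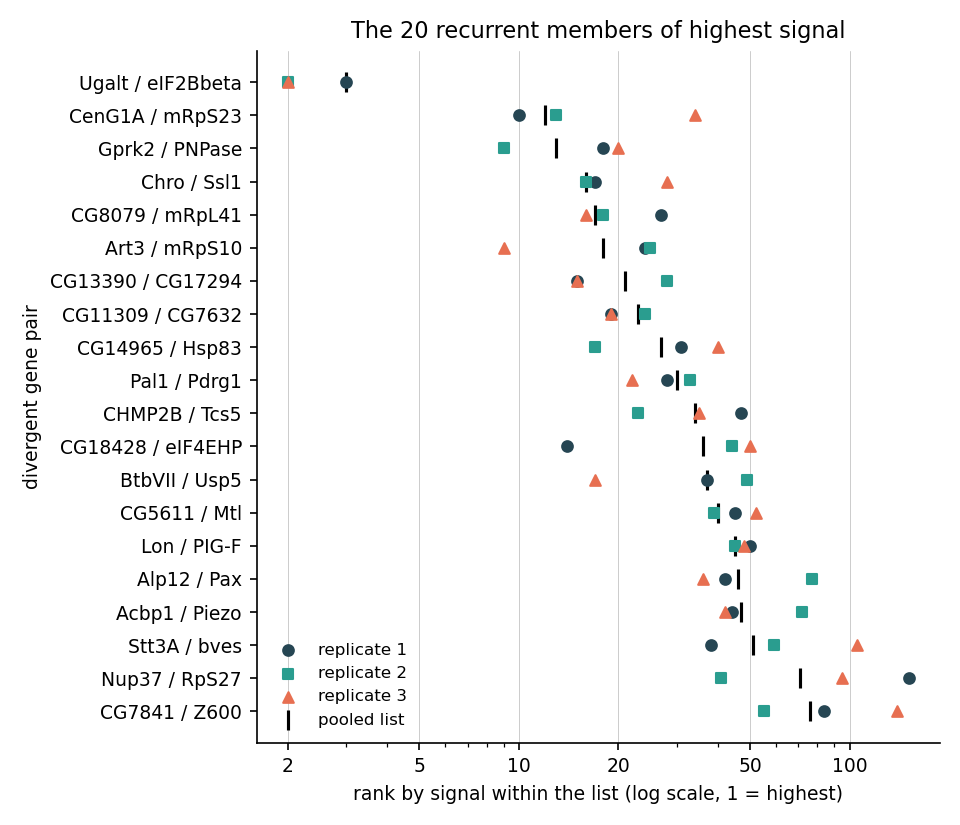
Rank by signal within each list (horizontal, log scale, 1 is the highest) of the 20 members of highest pooled signal that all 3 replicates supported (vertical, 1 row per gene pair), with a symbol for each replicate and a bar for the pooled list. The Ugalt and eIF2Bbeta pair ranks 3, 2 and 2, and no rank in the plot exceeds 151. High ranks are partly built in by this choice of members.

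Genes in divergent pairs had a strong peak more often than other coding genes. Of the 5052 genes in a pair, 1482 held a strong summit at most 500 bp from a start site (29.3%, 95% interval 28.1 to 30.6), against 1157 of the 8916 genes with no divergent partner (13.0%, 12.3 to 13.7). The share over all 13968 protein-coding genes was 18.9%. In the lists of the replicates, each limited to its 5219 regions of highest signal, the shares were 27.8%, 30.7% and 28.4% of divergent genes (mean 29.0% ± 1.57, SD, n = 3) and 13.3%, 13.1% and 12.6% of the others (13.0% ± 0.375, SD, n = 3). The ranges of the replicates did not overlap. The difference was 14.5, 17.6 and 15.8 percentage points in replicates 1, 2 and 3, with the same sign in all 3 (two-sided exact sign-flip permutation test, p = 0.25, the smallest value that 3 replicates allow, so the threshold of 0.05 could not be reached).

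The size of this difference depends on how a shared peak is counted, since 1 summit between close start sites counts for both genes. When a gene counted only where its own TSS was the nearest to a strong summit, an alternative added after seeing the data, 932 of the 5052 divergent genes (18.4%, 17.4 to 19.5) and 1094 of the 8916 others (12.3%) had a peak. The difference was then 6.18 percentage points in place of 16.4. Over the replicates the shares by this count were 18.1% ± 0.555 of divergent genes and 12.3% ± 0.359 of the others (SD, n = 3). Divergent genes also had slightly more annotated start sites, 1.47 per gene against 1.37. Restricting the peaks to the 464 members and the single-promoter peaks supported by all 3 replicates, or to the stronger part of the list, left a difference of 9.65 and 8.82 points, with fewer peaks counted by construction. Requiring support by the other replicates with 1 left out gave 10.9 without replicate 1, 10.6 without replicate 2 and 11.6 without replicate 3, also over fewer peaks.

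Single genes were also split by whether they lie in tandem, with another coding gene ending at most 1000 bp upstream on the same strand. Of 3585 tandem genes without a divergent partner, 503 had a strong peak (14.0%, 12.9 to 15.2), and of the remaining 5331 single genes 654 did (12.3%, 11.4 to 13.2). The share in divergent genes exceeded that in tandem genes by 13.6, 16.7 and 15.0 percentage points in replicates 1, 2 and 3 (exact sign-flip permutation test, p = 0.25). Candidates are all 30000 regions of the pooled list, peaks and background together. Counted over candidates in place of genes, 34.8% of the 2324 pooled candidates at divergent promoters were strong peaks, against 26.1% of the 5935 at single promoters.

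**Figure D2:**
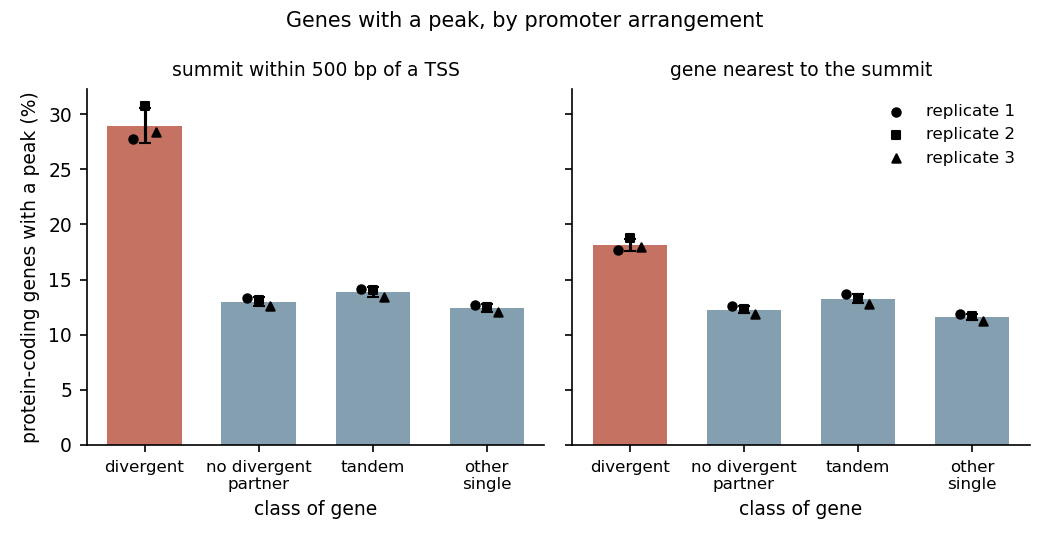
Share of protein-coding genes with a peak (vertical, percent) by the arrangement of their promoters, with bars for the mean over 3 replicate lists, error bars for the SD and a symbol for each replicate. On the left a gene counts with any summit within 500 bp of a TSS, and divergent genes average 29.0% against 13.0% for genes with no divergent partner; on the right it counts only where it is nearest to the summit, and the means are 18.1% and 12.3%.

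Signal was close in the divergent and the single class. The median signal of the 808 members was 262 (172.5 to 3686), against 272 for the 1550 single-promoter peaks and 258 for all 5219 strong peaks. Within the replicate lists the median log2 signal of divergent regions differed from that of single ones by -0.05, -0.01 and -0.11 (exact sign-flip permutation test, p = 0.25). The sign of this small difference turned under 5 of the alternatives tried, for example to 0.03 over peaks supported by all replicates. All 3 replicates supported 464 members (57.4%, 53.9 to 60.9) and 944 single-promoter peaks (60.9%, 58.4 to 63.3), exactly 2 supported 217 members, 1 supported 120 and none supported 7. Support means that the pooled summit lay in one of the 5219 regions of highest signal of that replicate. It is partly built in, because the pooled list holds the same reads.

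Support followed signal among the members, split by signal into 4 groups of 202. It was complete for 199 of the 202 members of the highest group, 167 of the second, 83 of the third and 15 of the lowest, whose signals of 172.5 to 204 lie just above the end of the list. The 3 exceptions of the highest group were looked up after their values were seen. At Cp190 and CG4338 replicate 3 had a region of signal 212 at rank 144, whose summit lay 15 bp away, and the pooled summit fell 1 bp outside its edge. At a second BtbVII region the replicate 3 summit lay 4 bp away but ranked 5705, beyond the limit. At CG7806 and CG7810 the region of replicate 2 that covered the pooled summit ranked 26363, with its own summit 202 bp away. Replicate summits at members agreed to a median of 30 bp between replicates 1 and 2, 37 bp between 1 and 3 and 37 bp between 2 and 3, against 28, 34 and 35 bp at single promoters.

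Most summits lay in the space shared by the pair. Between the start sites stood 524 of the 808 (64.9%, 61.4 to 68.1), at a median of 99.5 bp upstream of the nearest TSS with quartiles of 60 and 145 bp, and 284 (35.1%) lay inside the nearest gene. In the replicate lists 60.4%, 68.5% and 61.2% lay between (63.4% ± 4.46, SD, n = 3). Seen from the nearest TSS, 64.5% of members and 71.3% of single-promoter summits were upstream, a difference of -11.6, -5.17 and -8.80 percentage points in replicates 1, 2 and 3 (exact sign-flip permutation test, p = 0.25). The median distance from the nearest TSS was 96 bp at members and 165 bp at single promoters. A summit between start sites can be no farther from the nearest than the middle of the pair, and the part of this limit in the difference was not tested.

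By annotation, 381 of the 808 summits were intergenic (47.2%), 258 in a 5′ UTR (31.9%), 145 in an intron (17.9%), 11 in a coding exon, 10 in a non-coding exon and 3 in a 3′ UTR. Single-promoter summits were intergenic in 34.3%, in a 5′ UTR in 25.2% and in an intron in 36.3%. Within 100 bp upstream of the nearest TSS lay 262 members, and from there to 200 bp upstream another 207. Among the members of the highest group by signal, 73.8% lay between the start sites, against 60.9% in the lowest group, and from the highest to the lowest group the median position was 87, 59.5, 38.5 and 43.5 bp upstream.

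Where the summit stood changed with the room between the start sites. In pairs at most 100 bp apart 13 of 63 summits lay between (20.6%), in pairs over 100 and up to 200 bp apart 26 of 69 (37.7%), and in pairs over 200 and up to 300 bp apart 155 of 189 (82.0%). In wider pairs the share ran from 56.2% to 82.1%. In the narrowest class, up to 60 bp apart, 28 of 30 summits lay outside the pair, at a median of 69 bp inside the nearest gene and 101 bp upstream of the partner. For the 486 summits between start sites at least 200 bp apart, the median position was 29.2% of the way across from the nearest TSS, 105 bp from it, with 132 of them (27.2%) at least 40% of the way across, near the middle, and 147 (30.2%) less than 20% of the way. Counted from the nearest TSS, a summit cannot pass the middle. These shares were not set against an even placement, so a preference for either place was not tested.

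**Figure D3:**
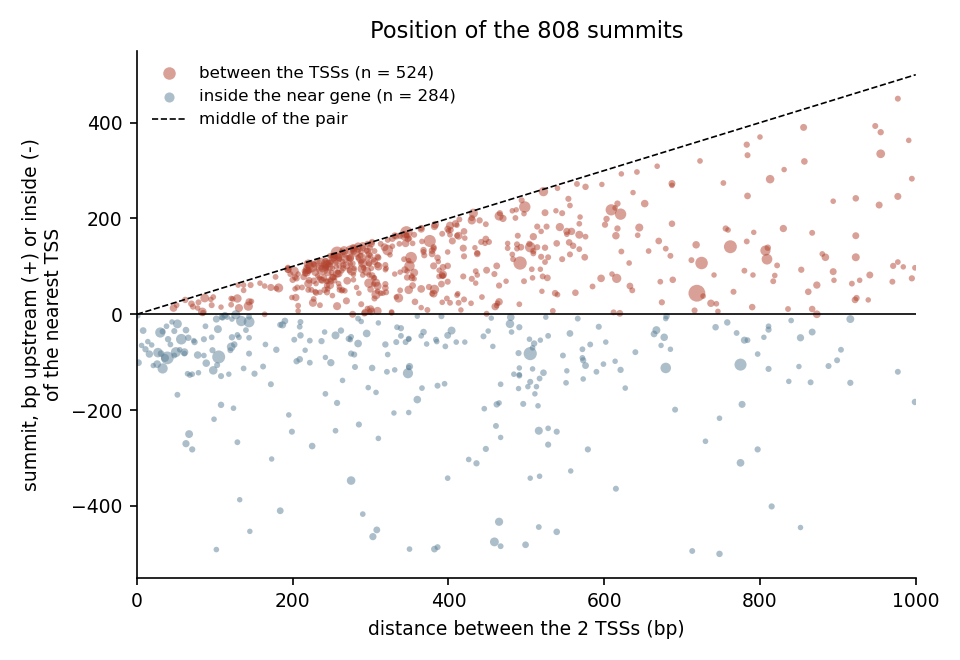
Position of each of the 808 summits relative to its nearest TSS (vertical, bp, positive upstream and negative inside the gene) against the distance between the start sites of the pair (horizontal, bp), with point area rising with pooled signal. The dashed line marks the middle of the pair. By definition the 524 summits between the start sites cannot lie above it, and the 284 inside the nearest gene lie under 0. Below 100 bp of distance most points are under 0.

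Pairs over 200 and up to 300 bp apart were the most numerous and among those most often bound. A strong summit lay in range of 197 of these 542 pairs (36.3%, 32.3 to 40.6), against 98 of 428 pairs at most 100 bp apart (22.9%) and 74 of 354 from there to 200 bp (20.9%, 16.8 to 25.5). The replicates gave 33.8%, 39.7% and 31.7% for the first class, 21.7%, 25.9% and 23.4% for the narrowest and 19.5%, 21.2% and 20.9% for the class up to 200 bp. The 200 to 300 bp class lay above the 2 narrower ones in every replicate. Wider classes ran from 25.6% to 35.0%, although the window searched grows with the distance, from a median of 1057 bp in the narrowest class to 1954 bp in the widest. The median signal of members ran from 240 to 292 over the classes with no steady order.

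Members at the limits of the rule, and regions just outside them, are given as a description. The narrowest pairs were Atg6, an autophagy gene, with Pisd, 1 bp apart (signal 206), dpa, a subunit of the replicative helicase, with didum, 2 bp apart (signal 392), and CG3032 with CG4593, 6 bp apart (signal 183). The widest pair inside was hts, an adducin, with CalpA, a calpain protease, 999 bp apart, with 2 members of signal 333 and 218, followed by bsk, the fly JNK, with CG31717, 995 bp apart (signal 294). Just outside were Nep1 with raptor at 1004 bp (signal 194), RpS7 with Anp at 1006 bp (signal 486) and CG9992 with CG4239 at 1012 bp (signal 772). A summit 500 bp inside Pi3K92E (signal 338) and one 494 bp inside CG12065 (signal 244) were the farthest members from a TSS, while summits 518 bp inside Pur-alpha (signal 228) and 519 bp inside CG5946 (signal 184) were just too far. The lowest signals among members were 172.5 at MED25 and 172.7 at Cpes, and the highest among candidates outside the strong list at divergent promoters were 172.2 at CG32452 and 172.1 at osi.

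Several members at 1 pair were seen at 84 pairs with 171 peaks, whose summits spanned a median of 210.5 bp (199 to 2564 bp). The median width of a member was 450 bp, so the regions at a pair can overlap. The same replicate regions can also cover both summits, as at CG6550 and Mtap, so their support is not separate. Whether such members are separate binding sites was not tested. At 56 of these pairs a summit was nearest to each gene. At RpS27 and Nup37 the peaks had signals of 1386 and 214, the first 16 bp inside RpS27 and the second 49 bp inside Nup37. These regions overlap, the first ending at 25247694 and the second starting at 25247482. At Dic1, a mitochondrial carrier, and Elp6 the peaks lay near different start sites, with signals of 1262 and 235. The 2 peaks at p38a, a stress-activated kinase, and CG6178 share their coordinates and differ only in the summit, with signals of 979 and 585, and these are the only members of which that is true. BtbVII itself, paired with the deubiquitinase gene Usp5, held 3 members, with signals of 1771 (rank 37 in the pooled list), 585 and 188. The line carries a tagged copy of this gene, whose part in the signal there was not tested.

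Gene groups were described by 19 lists matched by symbol, which held 1334 genes, 640 of them in a divergent pair; 233 members had a gene of a list in their pair and 575 had none. The cytosolic ribosomal protein genes had the highest share of the 19 lists. Of 53 in a divergent pair 47 held a strong summit near a start site (88.7%, 77.0 to 95.7), against 29.3% of all divergent genes, and in the replicates the share was 88.7%, 90.6% and 90.6%. Of the 33 such genes with no divergent partner 21 had one (63.6%, 45.1 to 79.6), against 13.0% of all single genes. The 60 members at their pairs had a median signal of 462.5, and 49 of the 60 exceeded the median of all members. In 49 of the 60 the ribosomal protein gene, not its partner, was nearest to the summit, 29 summits lay in a 5′ UTR, and the median position was 0.5 bp inside the nearest gene.

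Among them, RpS27 with Nup37 (3R, 25247335 to 25247694) had a pooled signal of 1386 and ranked 151, 41 and 95 in replicates 1, 2 and 3. RpL7 with Ripalpha, 30 bp apart (2L, 10200885 to 10201196), had 1206 and ranked 207, 54 and 173. For both the rank in replicate 2 was the best and that in replicate 1 the poorest.

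Genes of mitochondrial ribosomal proteins were divergent in 58 of 73 cases, and 20 of the 58 had a strong peak (34.5%, 22.5 to 48.1; replicates 29.3%, 31.0% and 29.3%), close to the 29.3% of all divergent genes. In 8 of the 24 members at their pairs the mitochondrial ribosomal protein gene was the nearer one, and the median signal was 212. This median hides a wide range, from 172.9 to 2204, with CenG1A and mRpS23, CG8079 and mRpL41 (signal 2070), and Art3 and mRpS10 (signal 2053) at its upper end. Of 15 such genes with no divergent partner 1 had a strong peak.

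Of the next 4 lists, the intervals of 3 hold the 29.3% of all divergent genes, and that of the chaperones lies above it. Chaperone genes had a strong peak in 13 of 22 divergent genes (59.1%, 36.4 to 79.3) and in 5 of 22 single ones (22.7%, 7.82 to 45.4). The replicates gave 45.5%, 40.9% and 59.1% of the divergent ones. All 3 replicates supported 4 of the 13 members at pairs with a chaperone gene, against 57.4% of all members. The median signal of these 13 was 232, against 262 for all members. The members included Hsp83, Hsc70-5, a mitochondrial Hsp70, with CG8531 (signal 571), and CCT3, a chaperonin subunit, with CG10324 (signal 305). Translation factors had a strong peak in 12 of 31 divergent genes (38.7%, 21.9 to 57.8), among them eIF4EHP and eIF1, which lies opposite RpL28 (signal 582). The member at the pair of eIF2Bbeta has its summit 675 bp upstream of that gene, beyond the 500 bp counted here. Vesicle traffic genes had a strong peak in 29 of 81 (35.8%, 25.4 to 47.2), among them alphaCOP, a coat subunit, with CG13919 (signal 682), Vps33B, of membrane fusion, with the protease gene Fur1 (signal 910), and Arl1, a Golgi GTPase, with the remodeller gene brm (signal 848). RNA polymerase and general transcription factor genes had a strong peak in 18 of 56 (32.1%, 20.3 to 46.0), among them the Mediator subunit MED30 with Rev1 (signal 582), and Polr3E, of RNA polymerase III, with CG10584 (signal 885). The member at the pair of the Mediator subunit MED15 and CG4297 (signal 759) has its summit 531 bp upstream of MED15, beyond the 500 bp counted.

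In the strong list the other lists of housekeeping genes were under the 29.3% of all divergent genes, with wide intervals. In replicates 1, 2 and 3 the share of all divergent genes was 27.8%, 30.7% and 28.4%. The aminoacyl-tRNA synthetase genes were at 20.8%, 33.3% and 33.3%, above that share in replicates 2 and 3. The cell cycle genes, at 18.2%, 30.3% and 27.3%, were below it in each replicate. The shares were 9 of 33 cell cycle genes (27.3%), 6 of 24 aminoacyl-tRNA synthetase genes (25%), 8 of 33 splicing factor genes (24.2%), 5 of 26 proteasome genes (19.2%), 9 of 47 replication and repair genes (19.1%), 4 of 21 nucleoporin genes (19%), 6 of 32 ubiquitin pathway genes (18.8%) and 8 of 46 oxidative phosphorylation genes (17.4%, 7.82 to 31.4). The strongest members in them included ND-ASHI, of respiratory complex I, with Fum1 (signal 967), U2af50, which recognises the 3′ splice site, with PIG-Q (signal 628), IleRS with Hem (signal 488), Cdc16, of the anaphase-promoting complex, with orb (signal 558), mus312, a nuclease scaffold, with mrva (signal 514), Uba2, the SUMO-activating enzyme subunit, with Cds (signal 801), and Rpn5, of the proteasome lid, with Hat1 (signal 293).

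Tissue-specific families held few divergent genes and few members. Over all 13968 coding genes 5052 were in a divergent pair, and 29.3% of these had a strong peak. Of 61 developmental transcription factor genes 2 were in a divergent pair, and 1 of these had a strong peak, Mef2, a muscle regulator, with Pal1 (signal 257). Of the 59 with no divergent partner 10 had a strong peak (16.9%, 8.44 to 29.0), against 13.0% of all single genes. Among single cuticle protein genes it was 1 of 111, and among single chemoreceptor genes 0 of 154. None of 13 divergent cuticle protein genes had a strong peak (exact interval up to 24.7%), nor did 25 of 26 divergent chemoreceptor genes. Members at pairs with a chemoreceptor were 5, and in none of them was the receptor the gene nearest to the summit, as at Gr32a and Idua (signal 433), Ir60b and Letm1 (signal 352) and Gr64a and CG11594 (signal 337).

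**Figure D4:**
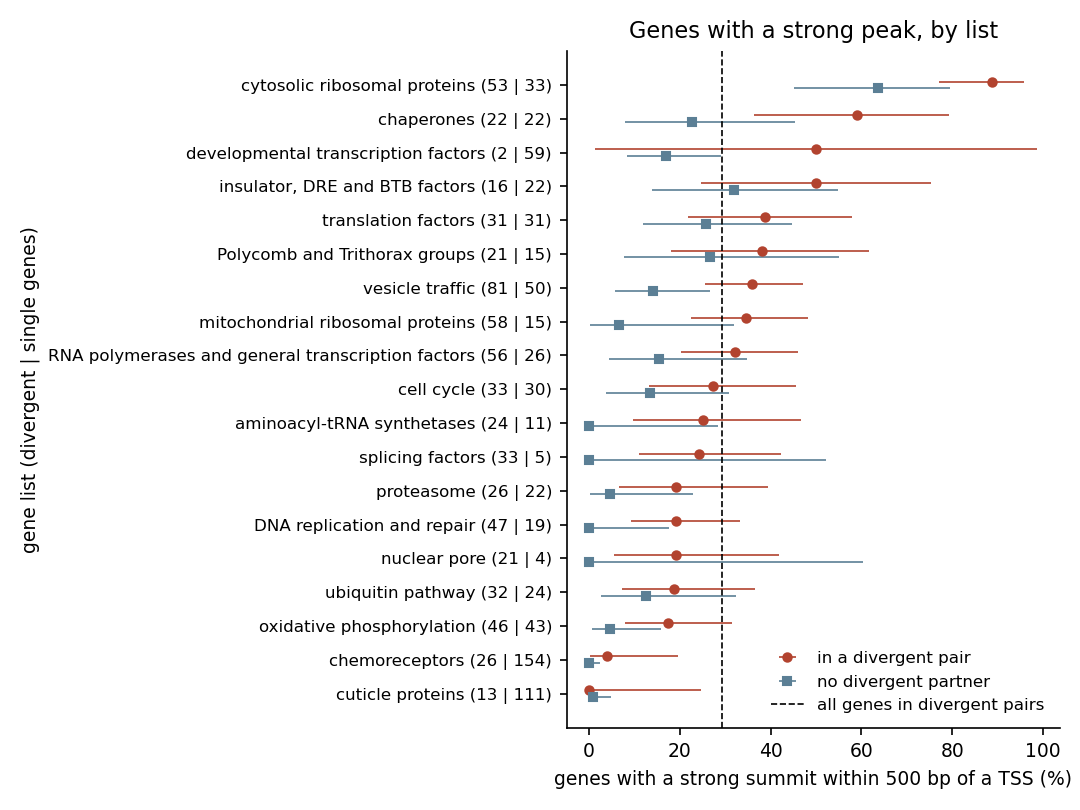
Share of genes with a strong summit within 500 bp of a TSS (horizontal, percent) for each of 19 lists (vertical, with the number of divergent and of single genes), with circles for genes in a divergent pair, squares for genes with no divergent partner, lines for exact 95% intervals and a dashed line at the 29.3% of all divergent genes. Cytosolic ribosomal protein genes are at 88.7% and 63.6%, and the cuticle protein and chemoreceptor genes are near 0 in either arrangement.

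Genes for chromatin proteins that act at such promoters were looked at by name. Of the 16 insulator, DRE and BTB factor genes in a divergent pair 8 had a strong peak (exact interval 24.7% to 75.3%, which holds the 29.3% of all divergent genes): BtbVII, BuGZ, Chro, Cp190, Dref, M1BP, Trl and pzg. The median signal of the 9 members at these pairs was 658, with 6 of them above the median of all members. Of the 9, 3 lie at BtbVII itself, of which the line carries a tagged copy, and all 3 replicates supported 4. Dref, which encodes DREF, starts 84 bp from RpL13 and their member had a signal of 787, 5 bp upstream of RpL13. M1BP, paired with CG8202, had 658, Cp190, a cofactor of insulator proteins, had 1068, pzg, a partner of DREF, had 209, and BuGZ, with LSm7, had 181. At Trl, the gene for GAGA factor, the strongest region near any TSS had a signal of 447, but no summit there had the divergent TSS as its nearest. Zif, with CG9727, had a candidate of 170 just under the end of the strong list, and Ibf1 one of 71.4. Lsd-1, which encodes a lipid droplet protein and counts among the 16 by its symbol only, had one of 73.5. No candidate summit was near a start site of su(Hw), z, Elba2, insv or Ibf2.

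Polycomb and Trithorax group genes had a strong peak in 8 of 21 divergent genes (38.1%, 18.1 to 61.6, against 29.3% of all divergent genes), among them brm, E(z), the histone methyltransferase of Polycomb complex PRC2, with Cnep1r2, 16 bp apart (signal 518), and fs(1)h, a bromodomain protein, with mys (signal 363).

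The sequence around the summits differed between divergent and single promoters in several of the 11 motifs, searched on either strand within 100 bp on each side. The repeat GAGAGA lay at 62 of 808 members (7.67%, 5.93 to 9.73), against 279 of 1550 single-promoter peaks (18.0%). The replicates gave 8.32%, 6.32% and 6.02% at divergent and 19.5%, 17.5% and 18.6% at single promoters, and the ranges did not overlap (difference -11.7 ± 0.818 percentage points, SD, n = 3, exact sign-flip permutation test, p = 0.25). Among all annotated coding promoters, taken as a window of the same length ending at the TSS, 11.1% held GAGAGA, and among divergent ones 6.16%. All coding promoters, here and below, include the divergent ones, so their share is not that of single promoters alone. In the same window ending at the TSS, 5.90% of divergent start sites with a strong summit within 500 bp and 6.26% of those without one held GAGAGA. Weaker candidates at divergent promoters had it in 7.12%. From the highest to the lowest group of 202 members by signal it was present in 3.47%, 4.95%, 13.4% and 8.91%.

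The DRE lay at 59 members (7.30%) and 35 single-promoter peaks (2.26%, 1.58 to 3.13), with 5.51%, 9.06% and 8.41% at divergent and 1.68%, 2.18% and 1.55% at single promoters in replicates 1, 2 and 3. The difference was 5.86 ± 1.76 percentage points (SD, n = 3; exact sign-flip permutation test, p = 0.25). Annotated divergent promoters held it in 11.6% and all coding promoters in 6.21%. In the same window ending at the TSS, 13.0% of divergent start sites with a strong summit within 500 bp and 11.1% of those without one held a DRE. Weaker candidates at divergent promoters had it in 6.93%, close to the members. CGATA lay at 33.4% of members, 28.5% of single-promoter peaks, 49.5% of annotated divergent promoters and 36.6% of all coding promoters, and the Motif 1 core at 3.96%, 1.68%, 6.56% and 3.33%. At divergent start sites with and without a strong summit within 500 bp, CGATA was held by 48.6% and 49.8%. The Motif 1 core was held by 6.25% and 6.68%.

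TATAAA was found at 305 members (37.7%, 34.4 to 41.2), at 28.6% of single-promoter peaks and at 26.7% of weaker candidates at divergent promoters. The replicates gave 36.0%, 38.0% and 35.9% at divergent and 29.3%, 29.4% and 29.1% at single promoters (exact sign-flip permutation test, p = 0.25). From the highest to the lowest of the 4 groups of members by signal its share was 44.1%, 41.6%, 29.7% and 35.6%, with no steady order. The GC content of the windows averaged 36.9% ± 8.19 at members, 39.7% ± 9.05 at single-promoter peaks and 40.6% ± 8.38 at weaker candidates at divergent promoters (SD over windows), and 34.7%, 36.3%, 38.7% and 37.9% in the same 4 groups, the highest GC standing where TATAAA was rarest. The part of base composition in the share of TATAAA was not tested. Annotated divergent promoters, at 36.8% GC, held TATAAA in 37.6%, near the share at members, and all coding promoters held it in 33.5%. It was held by 38.6% of divergent start sites with a strong summit within 500 bp and 37.1% of those without one.

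CAGCTG lay at 14.5% of members, 10.2% of single-promoter peaks, 13.9% of annotated divergent promoters and 12% of all coding promoters. TCAGT lay at 30.1% of members, 36.5% of single-promoter peaks, 31.2% of annotated divergent promoters and 33.4% of all coding promoters. For CACACA the shares in the same order were 16.6%, 20.4%, 12.2% and 15.1%, for a run of 7 A 21.8%, 20.3%, 20.2% and 18.9%, for GCCAT 25.4%, 24.8%, 28.2% and 29.8%, and for the Zelda site 0.743%, 1.03%, 0.728% and 1.19%. The difference between divergent and single promoters changed sign between the replicates for the run of 7 A (-0.96, 2.93 and 1.57 percentage points), and for GCCAT it was 0.53 points in the strong list and -0.81, -0.042 and -1.31 in the replicates.

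**Figure D5:**
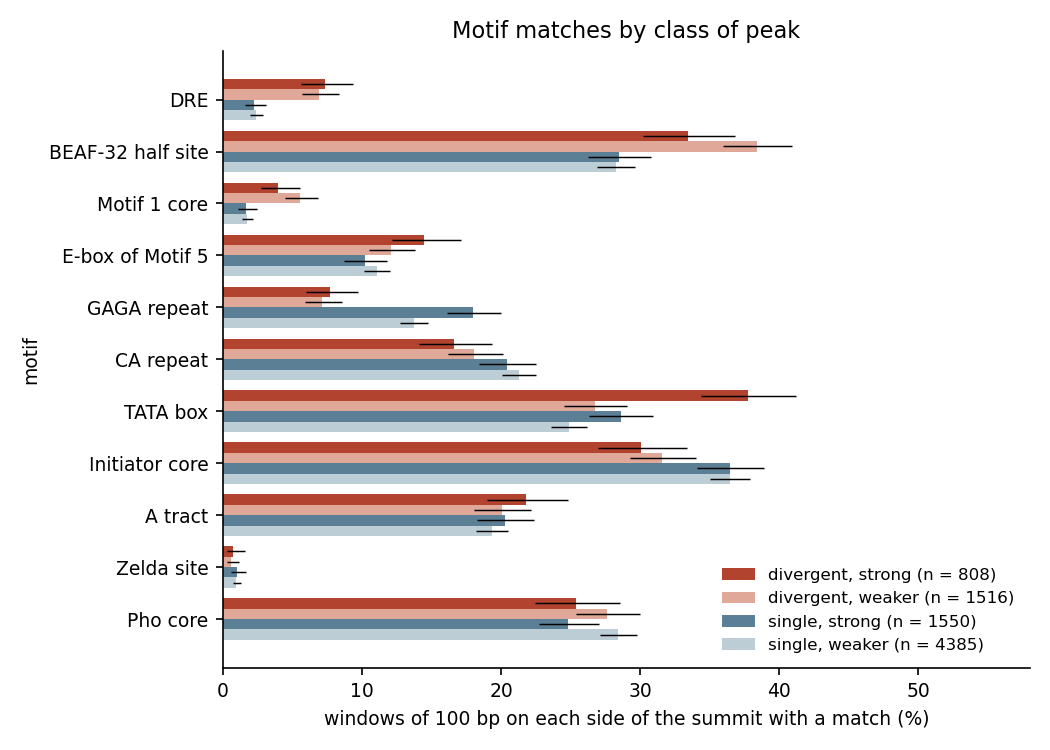
Share of windows of 100 bp on each side of the summit with an exact match to each of 11 motifs (horizontal, percent, with exact 95% intervals), for strong and weaker regions at divergent and at single promoters. GAGA repeats stand at 7.67% of strong divergent and 18.0% of strong single regions, the DRE at 7.30% and 2.26%, and the TATA box at 37.7% and 28.6%.

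Sequence also varied with where the summit lay. At the 524 members between the start sites TATAAA was present in 45.4%, GAGAGA in 5.53% and the DRE in 8.78%, with a GC content of 34.3% ± 7.46. At the 284 members inside a gene the shares were 23.6%, 11.6% and 4.58%, with a GC content of 41.7% ± 7.29 (SD over windows). Averaged over all members and turned so that the nearest gene runs to the right, GC content had its minimum of 34.6% next to the summit, and stood at 41.7% and 47.6% on the left and right at 300 to 400 bp from it. At single promoters the minimum was 38.1% and the flanks 39.5% and 45.6%.

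The chromosome arms differed in how many of their pairs were bound. A strong summit lay at 183 of 517 divergent pairs on 3L (35.4%, 31.3 to 39.7), 206 of 661 on 3R (31.2%), 155 of 540 on 2R (28.7%), 146 of 509 on 2L (28.7%), 95 of 402 on X (23.6%, 19.6 to 28.1) and 1 of 11 on chromosome 4. The replicates gave 33.1%, 36.4% and 32.5% on 3L and 20.9%, 24.6% and 21.4% on X, so that X lay below 3L in each of the 3 by more than their spread. Embryos of mixed sex hold fewer copies of X than of the autosomes per cell on average, and the part of copy number in this order was not tested.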

How the data were processed

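Only lists on dm6 were used. The deposited lists of the 3 replicates and of the pooled replicates hold 30000 regions each, peaks and background meant as input to an irreproducible discovery rate (IDR) analysis, per the deposited README files; the optimal list of 5219 regions passed its threshold and equals the top of the pooled list. Each region has a signal value and a −log10 q-value, both as deposited by the authors; the signal was used to rank regions within a list, and the −log10 q-value was not used. The README files also name a further alignment for each list, taken to be the control, whose nature is not given. The aligner, peak caller, versions and threshold were not given in the sources used here, and the depth is unknown.

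Gene models were Ensembl release 115 (BDGP6), with 13968 protein-coding genes, and the sequence was the RefSeq Release 6 genome. Of start sites at equal distance, one with a divergent partner was taken first. Shares have exact (Clopper-Pearson) 95% intervals, which cover counting error over regions or genes only, and these are not independent. Differences were taken within each replicate list limited to 5219 regions and tested with a two-sided exact sign-flip permutation test over the 3 replicates (numpy 2.4.6, pandas 2.3.3, scipy 1.17.1). The placement and the tests were tested on simulated data. The members, gene lists, motifs and tests were chosen with earlier results of these data known. Genes were named by rule: the 20 members of highest signal supported by all replicates, up to 3 of highest signal per list, those at each limit, the narrowest and widest pairs, pairs with several members and the insulator, DRE and BTB factor genes. Sequences were chosen among members not on 2R. The labels call the replicates biological without giving their origin further, so the p-values refer to these libraries only. A p-value of 0.25 in this test says only that the 3 differences had the same sign, whatever their spread. Lists were matched by symbol, so that the insulator list took in Lsd-1, which encodes a lipid droplet protein, and the ubiquitin list took in Ubx, a Hox gene. One item that the naming rule picked is not reported here.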

Additional observations from a re-analysis of the deposited data

How the results depend on the processing

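The number of members, 808 as reported, was 321 with start sites at most 300 bp apart, 464 for peaks supported by all 3 replicates, 417 for the upper 50% of the strong peaks by signal, and 519 to 569 when support by the other 2 replicates was required and each replicate was left out in turn; these settings admit fewer pairs or peaks by construction. Limits of 500 bp on the pair or 250 bp on the summit, 1 TSS per gene, starts of coding transcripts only and region midpoints left it within 1.5 times. The median log2 signal of divergent minus single promoters, -0.05 as reported, was 0.026 with start sites at most 300 bp apart, 0.033 over peaks supported by all replicates, 0.0043 over the upper 50%, and -0.0013 to 0.044 when each replicate was left out; the cause was not tested. Support of members by all replicates, 57.4%, was 84.4% with double the regions taken from each replicate, 93.6% with all deposited regions, and 46.8% when a replicate summit had to lie within 100 bp. The share of genes with a strong peak stayed higher in divergent genes in all 13 alternatives, by 6.18 to 17.0 percentage points, and the share of summits between the start sites ran from 60.4% to 68.6%. Starts of coding transcripts only, counted among these alternatives, gave the same values as reported, so that setting is no separate check. The lower DRE share at single promoters and the higher GAGA share there kept their sign in all 7 alternatives each, which were added after the data were seen. Windows of 50 and 250 bp on each side lowered and raised the motif shares, as the length searched fixes. The differences were taken within each replicate, and with 1 group of samples there were no groups to pair by replicate number. The unknown depth limits every count near the end of the strong list.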
